A study of Mus musculus with 38 samples.

Results

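*Spp1* encodes osteopontin, a secreted phosphoglycoprotein that binds integrins through an RGD sequence and the hyaluronan receptor CD44. In liver it is known as a product of bile duct epithelium, and in injured liver also of reactive ducts, activated stellate cells and a class of macrophages found in scars. It is 1 gene of the 10547 measured, taken as the row of that name in the counts and in the normalised values of all 38 segments. RefSeq places *Spp1* (gene 20750, protein coding) on the plus strand at chr5:104435111-104441053 of GRCm38.p6, the build also called mm10.

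The samples are segments of mouse liver sections profiled on the NanoString GeoMx platform, in which barcodes of tissue-bound probes are released by light from 1 segment at a time and sequenced. Groups combine 2 genotypes and 2 diets. WT mice were compared with Trail.mye mice, whose floxed *Trail* gene is deleted by a Cre expressed from *Lyz2*, a gene active across myeloid cells. The strain is C57BL/6 per the study. The floxed alleles and the Cre differ between the genotypes together with the loss of *Trail*, and cannot be told apart from it here. Mice were 6 to 8 weeks old and received 3 rounds of 5 days on a control diet (CON) or on a diet with 0.1% DDC, a porphyrinogenic compound that injures bile ducts. The rounds were separated by 2 rounds of 3 days on chow, and the experiment ended on day 22. In periportal regions of interest (ROIs), segments positive for pan-cytokeratin (PanCK+), which marks bile duct epithelium, and for IBA1 (IBA1+), a macrophage marker, were collected. PanCK+ segments numbered 3 from WT CON, 4 from WT DDC, 4 from Trail.mye CON and 5 from Trail.mye DDC mice, and periportal IBA1+ segments numbered 2, 4, 4 and 5 in that order. Another 7 IBA1+ segments came from the parenchyma (1, 2, 2 and 2). The labels tie no segment to a mouse, so segments may share an animal, and p-values over them are too small.

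Total counts ran from 20319 to 836971 per segment, and 1 count is the lowest value in the table. Levels are given as Q3-scaled counts, in which each segment is scaled to the same 75th percentile of 10.5. ROI 035 of the Trail.mye DDC group stood apart in both of its segments. It had the highest totals (836971 and 568720) and a negative probe, the background value of the assay, of 43.1 and 27.8 counts, against 1.00 to 6.08 in the other 36 segments. PanCK+ segments held the defining duct markers (*Krt19*, *Epcam* and others, 10 of 10 higher than in periportal IBA1+ segments, as were 7.67% of all genes), and 9 of 10 macrophage markers were higher in the IBA1+ segments, as were 10.2% of all genes. The 8 hepatocyte markers measured summed to 912 to 7833 in PanCK+ and to 1087 to 13743 in periportal IBA1+ segments.

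The 250 bases before the most upstream annotated start of *Spp1* are shown because several of the transcription factors measured below are known to act at this promoter. RefSeq gives them for chr5:104434861-104435110 of GRCm38.p6, plus strand, and capitals mark a match to a Runx motif (AACCACA) and 1 to an Ets motif (AGGAAGT).
Spp1 promoter: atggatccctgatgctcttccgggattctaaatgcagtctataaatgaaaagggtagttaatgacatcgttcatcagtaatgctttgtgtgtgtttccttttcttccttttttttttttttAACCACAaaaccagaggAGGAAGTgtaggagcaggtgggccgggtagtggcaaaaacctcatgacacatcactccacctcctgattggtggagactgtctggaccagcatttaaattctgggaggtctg
The Runx match begins 129 bases before the start and the Ets match 112 bases before it, and neither overlaps another searched motif. Searched on both strands, AACCACA was found in 4.40% and AGGAAGT in 7.69% of 32851 mouse promoters of this length. Searches for AP-1 (TGANTCA), Sox (ACAATG), TEAD (GGAATG), HIF (ACGTG) and NF-kB motifs found no match in this window. In the window of the same length before another annotated start of *Spp1*, no searched motif matched, the Runx and Ets motifs included. The motifs were chosen after the sequence was seen, and a match describes letters only.

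*Spp1* was highest in PanCK+ segments in every group, and IBA1+ segments lay higher on DDC (14.0 or above) than on CON (11.8 or below). The lowest IBA1+ segment on DDC, a parenchymal one of Trail.mye mice with 4 counts, was close to the highest on CON, a periportal one with 9 counts. Its group means, as Q3-scaled counts, were ordered from WT DDC PanCK+ segments (1562 ± 229, SD, n = 4) through Trail.mye DDC (972 ± 373, n = 5), WT CON (712 ± 177, n = 3) and Trail.mye CON PanCK+ segments (532 ± 93.5, n = 4). Periportal IBA1+ segments followed, with 235 ± 94.4 (n = 4) in WT DDC and 145 ± 56.0 (n = 5) in Trail.mye DDC. Parenchymal IBA1+ segments on DDC came next, at 63.0 in WT and 24.1 in Trail.mye (n = 2 each). The CON segments of both IBA1+ classes were last, at 2.33 to 11.8. Among neighbours in this order, the values did not overlap between WT DDC and Trail.mye DDC PanCK+ segments, between PanCK+ and periportal IBA1+ segments, and between IBA1+ segments on DDC and on CON, and they overlapped between all the others.

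**Figure D1:**
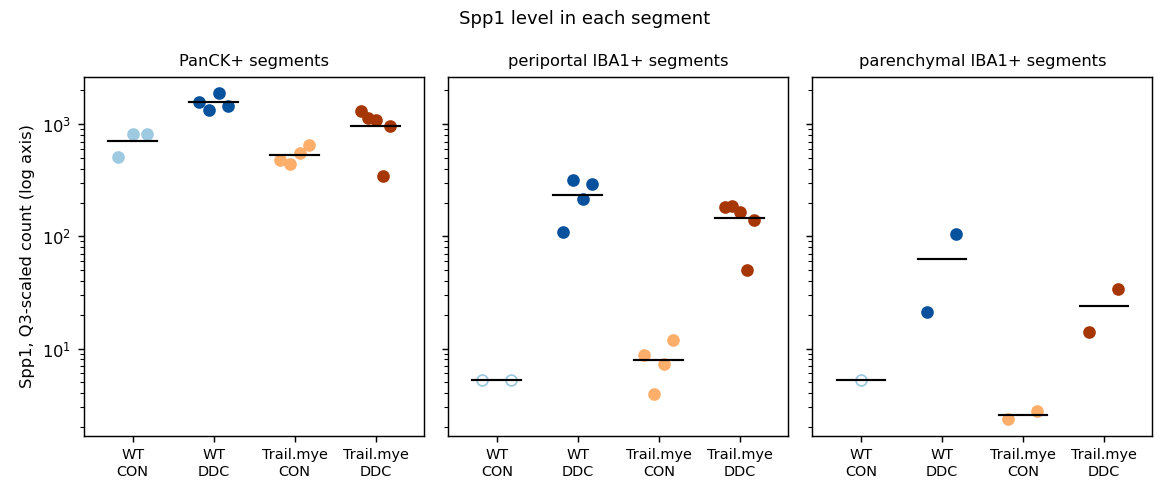
Each point is the *Spp1* level of 1 segment as a Q3-scaled count on a log axis, by genotype and diet, in PanCK+, periportal IBA1+ and parenchymal IBA1+ segments, and each line is the group mean. Open points are segments at 1 count, the lowest value in the table. The PanCK+ segments lie at 344 or above, and the IBA1+ segments on CON at 11.8 or below.

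As a share of all counts, *Spp1* took up 1.13% to 1.53% of the WT DDC PanCK+ segments and 0.491% to 0.664% of the WT CON ones. In the periportal IBA1+ segments of WT mice the share was 0.0974% to 0.249% on DDC. On CON it was 1 count in each of 2 segments, where 3 counts would have been 0.0114% and 0.00852%. The exact 95% upper limits of the share in these 2 segments were 0.0211% and 0.0158%. These limits cover counting error only, and fewer cells of a type and less RNA per cell cannot be told apart in a segment. Against the negative probe, *Spp1* was 60.7 to 784 times higher in PanCK+ segments, and 9.09 to 113 times higher in periportal IBA1+ segments on DDC. Both lower limits were ROI 035, and without it the ranges were 108 to 784 and 20.2 to 113. In CON IBA1+ segments it was only 0.730 to 3.55 times the negative probe, so that the level there lay near the background of the assay.

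In PanCK+ segments of WT mice, *Spp1* measured 508, 819 and 809 on CON and 1565, 1345, 1878 and 1460 on DDC. All 4 DDC segments lay above all CON segments, and the mean was 2.19-fold higher. In Trail.mye mice the values were 480, 441, 554 and 653 on CON and 1318, 1134, 1096, 344 and 970 on DDC. There the mean was 1.83-fold higher, with 4 of 5 DDC segments above all CON segments and ROI 035 below them all. Neither difference passed the edgeR quasi-likelihood test over all genes. The log2 fold change was 1.12 ± 0.34 (SE, adjusted p = 0.102) in WT, where 0.91% of all genes were called at an adjusted p under 0.05, and 0.87 ± 0.29 (adjusted p = 0.116) in Trail.mye, where 2.1% were. Without ROI 035 both passed, since the groups of a fit share 1 estimate of the spread, at 1.12 (adjusted p = 0.00137) in WT and 1.08 (adjusted p = 0.000188) in Trail.mye on the log2 scale, whose mean of 1129 ± 144 (n = 4) was then 2.12-fold that on CON. Of 10 other settings, 5 gave a call in WT and 0 in Trail.mye. The summed Q3-scaled count of the 10 cholangiocyte markers also differed with the diet, from 273 to 294 on CON to 695 to 987 on DDC in WT and from 189 to 292 to 417 to 817 in Trail.mye PanCK+ segments. The part of these markers in the *Spp1* levels was not tested.

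Between the genotypes, all 4 WT DDC PanCK+ segments were above all 5 Trail.mye DDC segments, also without ROI 035. The WT mean was 1.61-fold higher with that ROI and 1.38-fold higher without it. The log2 difference of Trail.mye to WT on DDC was -0.66 ± 0.28 (adjusted p = 0.451, 0.152% of genes called) and -0.45 (adjusted p = 0.497) without ROI 035. On CON the ranges overlapped, with a log2 difference of -0.41 ± 0.33 (adjusted p = 0.995, 0.218% called). The test of whether the diet response differed by genotype gave -0.25 ± 0.44 (adjusted p = 1, 0.114% called) and -0.038 without ROI 035.

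Periportal IBA1+ segments showed the far larger change in *Spp1*. In WT mice both CON segments were at 1 count, or 5.25 on the Q3 scale, and the DDC segments measured 110, 320, 215 and 294 (21 to 84 counts). With the CON segments set to 3 counts each, the DDC mean was 14.9-fold higher. In Trail.mye mice the CON segments measured 8.75, 3.94, 7.22 and 11.8 (3 to 11 counts) and the DDC segments 183, 187, 164, 50.1 and 140 (187 to 296 counts). All 5 DDC segments were above all CON segments, and the mean was 18.2-fold higher, or 21.2-fold without ROI 035. *Spp1* rose in the edgeR test in both genotypes, with adjusted p = 1.56e-05 in WT, where 1.19% of genes were called, and in Trail.mye by 4.18 ± 0.44 on the log2 scale (adjusted p = 1.82e-10), where 9.38% were. The fitted log2 value in WT, 5.46 ± 0.83, depends on how the segments at 1 count are treated and is no bound. Of 10 other settings the methods' t-test alone did not call it (adjusted p = 0.159).

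The genotypes did not separate in the IBA1+ segments. On DDC 3 of 4 WT segments were above all Trail.mye segments and the fourth, ROI 007, was below 4 of 5. The log2 difference of Trail.mye to WT was -0.71 ± 0.34 (adjusted p = 1, 0.019% of genes called) on DDC, or -0.49 without ROI 035, and 0.56 ± 1.17 (adjusted p = 1, 0.199% called) on CON. The difference in diet response was -1.28 ± 1.17 (adjusted p = 1, 0.0569% called). None of these tests shows that the genotypes were alike.

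Marker transcripts of cells other than macrophages changed in the same segments. Of 10 fibroblast markers, 5 rose on DDC in WT and 8 in Trail.mye periportal IBA1+ segments, where 0.142% and 4.2% of all genes rose, and their summed level went from 68.3 to 73.5 on CON to 877 to 1439 on DDC in WT, with 6 of 10 at 1 count in both CON segments. The 8 measured hepatocyte markers were lower, with 6 called in WT and 8 in Trail.mye, where 1.04% and 5.18% of all genes fell. Of 10 macrophage markers, 2 fell in WT and 4 in Trail.mye and none rose. In Trail.mye the means of *Clec4f* (110 to 9.27), *Cd5l* (71.1 to 14.0), *Adgre1*, *Vsig4*, *Marco* and *Timd4* were lower on DDC. Those of *C1qa* (119 to 133), *C1qb* (119 to 171), *C1qc* and *Csf1r* were not. In WT the means of all these markers were lower on DDC. Of 10 cholangiocyte markers, none was called in WT and 3 rose in Trail.mye. Their summed level was 99.8 to 115 on CON and 99.8 to 368 on DDC in WT and 53.8 to 67.0 against 125 to 177 in Trail.mye. The part of any of these cells in the *Spp1* counts of IBA1+ segments was not tested.

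Away from the portal tracts the same direction was seen at lower levels. Parenchymal IBA1+ segments measured 5.25 (1 count) in WT CON, 21.0 and 105 in WT DDC, 2.33 and 2.76 in Trail.mye CON and 14.0 and 34.1 in Trail.mye DDC. With both genotypes in 1 fit, *Spp1* rose on DDC by 3.32 ± 0.62 on the log2 scale (edgeR, adjusted p = 0.00434, 0.759% of genes called). Without the Trail.mye DDC segment of ROI 038 the value was 2.84 (adjusted p = 0.204). The duct keratin *Krt19* was at 1 count in both Trail.mye DDC segments and in 1 of 2 WT DDC segments, and *Epcam* likewise. Summed over the 10 cholangiocyte markers, the level was 242 to 281 on DDC against 62.5 to 65.9 on CON in Trail.mye, and 581 to 768 against 110 in WT, and the 2 of 10 that rose were *Krt8* (3.34, adjusted p = 1.25e-06) and *Krt18* (3.02, adjusted p = 3.62e-05), keratins that hepatocytes also express. The part of these cells in the parenchymal *Spp1* level was not tested. Periportal IBA1+ segments held more *Spp1* than parenchymal ones, by 1.96 ± 0.33 on the log2 scale (adjusted p = 3.85e-05, 2.23% of genes called) in a fit with the 4 groups as terms.

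In 15 ROIs both segments of 1 piece of tissue were collected, and *Spp1* was higher in the PanCK+ segment in 15 of 15. With the ROI as a block, the log2 difference of PanCK+ to IBA1+ was 3.63 ± 0.24 (edgeR, adjusted p = 3.69e-20, 17.8% of genes called). It was much larger on CON than on DDC. In WT it was 7.25 ± 0.61 on CON (adjusted p = 1.84e-14, 0.626% called) and 2.74 ± 0.23 on DDC (adjusted p = 1.77e-14, 1.78% called), and in Trail.mye 6.10 ± 0.31 on CON (adjusted p = 3.74e-26, 4.77% called) and 2.75 ± 0.19 on DDC (adjusted p = 1.35e-19, 15.6% called). By p-value *Spp1* ranked 1 of all genes in both CON groups. The fitted value in WT on CON depends on how the 2 IBA1+ segments at 1 count are treated. It was 6.85 to 12.9 under other settings and is no bound.

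**Figure D2:**
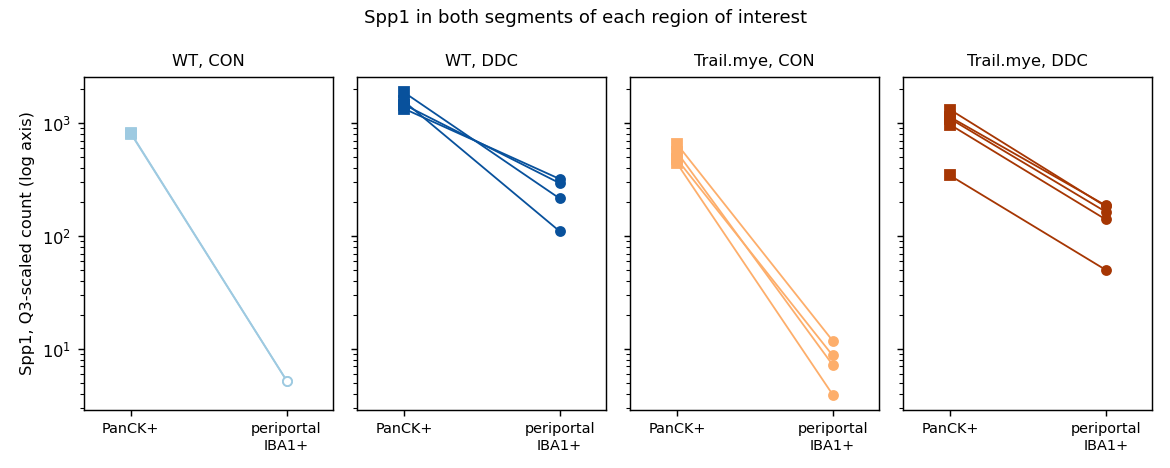
Each line joins the PanCK+ segment (square) and the periportal IBA1+ segment (circle) of 1 ROI, with the *Spp1* level as a Q3-scaled count on a log axis, for the 4 groups. Open circles are at 1 count. The lines fall from 441 or more to 11.8 or less on CON, and to between 50.1 and 320 on DDC.

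The ratio of the paired segments gives the size of this change in each ROI. In Trail.mye mice the PanCK+ level was 54.8, 112, 76.7 and 55.3 times the IBA1+ level on CON and 7.21, 6.07, 6.68, 6.86 and 6.92 times on DDC. The 5 DDC ratios lay close together, with an SD of 0.09 on the log2 scale, and ROI 035 was among them although both of its levels were the lowest of its group. In WT mice the ratios on DDC were 14.2, 4.20, 8.72 and 4.96. In the 2 WT CON ROIs the IBA1+ segment was at 1 count. With it set to 3 counts the ratios were 52.0 and 51.3. The lower of these was 3.62 times the highest WT DDC ratio, that of ROI 007. For counting error, the exact 95% limits of the ratio began at 27.6 and 27.2 in these CON ROIs. In ROI 007 they ended at 23.1. Put the other way, IBA1+ segments on DDC held 7.05% to 23.8% of the *Spp1* level of their PanCK+ neighbour in WT and 13.9% to 16.5% in Trail.mye, against 0.893% to 1.83% in Trail.mye on CON.

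The diet difference of this ratio was tested directly. In Trail.mye it was -3.35 ± 0.38 on the log2 scale (edgeR with the ROI block, adjusted p = 4.17e-09), and *Spp1* ranked 1 by p-value among the 133 genes called, which were 1.26% of all. Genes next by p-value were *Bgn* (-2.45), *Gas6* (-2.29), *Gsn* (-2.16) and *Fmo2* (-2.50). In WT it was -4.51 ± 0.80 (adjusted p = 0.00324), and *Spp1* was the 1 gene called (0.00948% of all), with 270 genes (2.56%) at an unadjusted p under 0.05. DESeq2 called 27 genes there. This WT value rests on 2 CON ROIs at 1 count and was no longer called without either of them (adjusted p = 0.322 and 0.851) or without the ROI block (-4.35, adjusted p = 0.158). The fit without the block also held the WT CON PanCK+ segment of ROI 001, which has no IBA1+ partner. The exact two-sided permutation test of the log2 ratios gave -3.41 with p = 0.00794 in Trail.mye (5 against 4 ROIs) and -4.44 with p = 0.0667 in WT (4 against 2), each the smallest p its design allows. With the IBA1+ segments of the WT CON ROIs set to 3 counts the mean difference was -2.86.

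Between genotypes on DDC the ratio differed by 0.01 ± 0.28 on the log2 scale (edgeR, adjusted p = 1.00), and the exact permutation test gave -0.08 with p = 0.865. On CON the difference was -1.15 ± 1.11 (adjusted p = 1).

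The same ratio was taken for markers of duct epithelium. *Krt19*, the keratin of duct cells, had an IBA1+ level that was a median of 44.1% of the PanCK+ level on CON and 12.4% on DDC in Trail.mye ROIs. For the adhesion molecule *Epcam* the medians were 13.0% and 9.94%. These medians are lower on DDC, and that of *Spp1* went from 1.56% to 14.6%. On CON the *Krt19* percentage ran from 3.91% to 66.7% over these ROIs. That of *Epcam* overlapped between the diets, at 3.85% to 20.0% on CON and 7.32% to 20.2% on DDC. The IBA1+ levels of *Krt19* and *Epcam* there averaged 6.35 and 4.16, each with 1 of 4 segments at 1 count. On DDC the IBA1+ levels averaged 6.26 and 9.71. The PanCK+ levels of *Krt19* and *Epcam* averaged 26.8 and 34.0 on CON and 50.1 and 82.3 on DDC. The lower percentages on DDC thus went with higher PanCK+ levels and not with lower mean *Epcam* in IBA1+ segments. Those on CON rest partly on values at the floor. For *Krt8* and *Krt18*, which hepatocytes also express, the median percentages were 19.9% and 29.1% on CON and 28.6% and 36.7% on DDC. In the test of the diet difference of the ratio, 0 of 10 cholangiocyte markers were called in WT (median log2 difference 0.88, against -0.16 over all genes). Only 0.00948% of all genes were called there, so a count of 0 says little about the markers. In Trail.mye 1 of 10 was called (median 0.29, against 0.15), the claudin *Cldn4*. It moved in the direction opposite to *Spp1*, in which 0.996% of all genes were called. In WT CON ROIs several of these markers were at 1 count in the IBA1+ segment (*Krt19* in 2 of 2, *Epcam* in 1 of 2). Their percentages there were taken at that lowest value and are no bounds. Of 10 fibroblast markers, 3 were called in Trail.mye in the direction of *Spp1* (median -1.73, against 0.15), where 1.26% of all genes were called in either direction. In WT 0 of 10 were called (median -1.16, against -0.16). In the opposite direction, 6 of 8 hepatocyte and 2 of 10 macrophage markers were called in Trail.mye. The part of these cells in the ratio of *Spp1* was not tested.

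**Figure D3:**
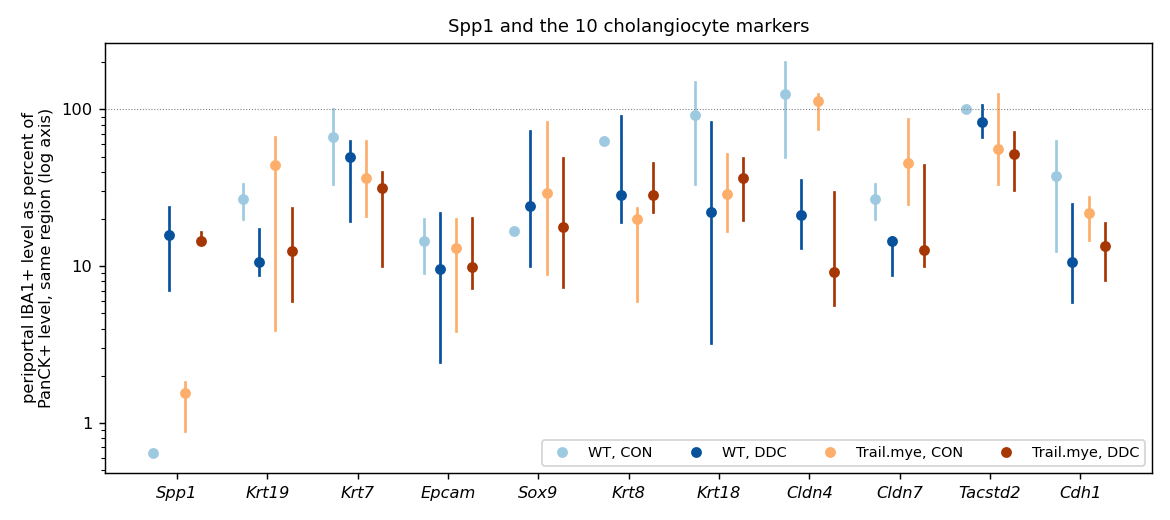
For *Spp1* and 10 cholangiocyte markers, points are the median over ROIs of the periportal IBA1+ level as a percent of the PanCK+ level in the same ROI (log axis), and lines run from the lowest to the highest ROI, for the 4 groups. The dotted line marks 100%. *Spp1* is below 2% on CON and above 7% on DDC, and for *Krt19* and *Epcam* the DDC medians are the lower ones.

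Whether an IBA1+ segment follows its own PanCK+ neighbour was examined over the 15 ROIs after centring each log2 level on its group. Pearson's r was 0.71 (exact permutation of partners within groups, p = 0.0461) and Spearman's rho 0.46 (p = 0.109). The size of r rested on ROI 035, the lowest of the Trail.mye DDC group in both segments: without it r was 0.30 (exact permutation p = 0.433), and without the 2 ROIs farthest from the median, 032 and 035, it was 0.29 (p = 0.491). The p rose above 0.05 on leaving out any 1 of 8 of the 15 ROIs, and in the 7 of these other than ROI 035 (027, 028, 029, 032, 033, 034 and 036) it was 0.0553 to 0.103 with r from 0.69 to 0.71. By group, r was 0.99 over the 5 Trail.mye DDC ROIs (0.84 over 4 without ROI 035), 0.82 over the 4 Trail.mye CON ROIs and -0.39 over the 4 WT DDC ROIs, given as a description. Both segments of a ROI come from 1 piece of tissue, while their totals differed in either direction, as in ROI 028 (37757 in PanCK+ and 220382 in IBA1+) and ROI 007 (50851 and 21551).

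**Figure D4:**
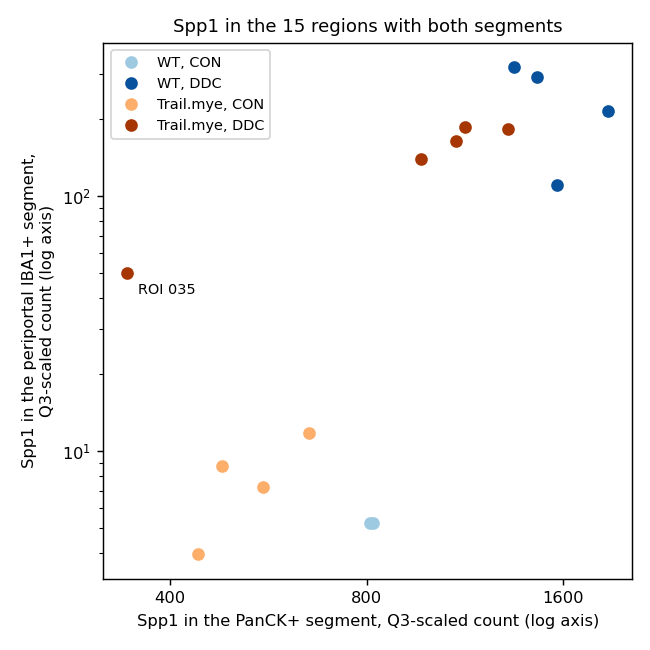
Each point is 1 of the 15 ROIs with both segments, with the *Spp1* level of the PanCK+ segment on the x axis and of the periportal IBA1+ segment on the y axis, as Q3-scaled counts on log axes, coloured by group. ROI 035 lies apart at 344 and 50.1, and the DDC groups lie above the CON groups.

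The receptors of osteopontin were measured in the same segments. Of the 12 on the list, 11 were analysed here. CD44 and the integrin subunit alpha-v, which pairs with several beta subunits to bind the RGD sequence, rose in PanCK+ segments on DDC, in WT and in Trail.mye, and were the 2 of 11 called in each genotype, where 0.493% of all genes rose in WT and 1.43% in Trail.mye (median log2 fold change 0.46, against -0.17 over all genes, in WT and 0.41, against 0.18, in Trail.mye). *Cd44* averaged 36.6 on DDC in WT, where the CON segments were all at 1 count (adjusted p = 0.00822). With these set to 3 counts, the DDC mean was 2.61-fold that on CON. In Trail.mye *Cd44* averaged 44.5 against 7.18 (log2 fold change 2.60 ± 0.43, adjusted p = 7.23e-06). *Itgav* averaged 47.8 against 11.1 in WT (adjusted p = 0.0460) and 35.0 against 12.2 in Trail.mye (1.54 ± 0.40, adjusted p = 0.0149). In periportal IBA1+ segments *Cd44* averaged 10.9 on DDC and 10.5 on CON in WT and 16.3 and 16.5 in Trail.mye, and was not called. There 0 of 11 receptors were called in WT (0 at an unadjusted p under 0.05) and 1 of 11, *Itgb5*, rose in Trail.mye (1.21 ± 0.28, adjusted p = 0.00190), where 4.2% of all genes rose. The PanCK+ to IBA1+ ratio of *Cd44* moved with the diet the opposite way to that of *Spp1* in Trail.mye, by 2.57 ± 0.45 on the log2 scale (adjusted p = 0.000359). Over all groups 3 of 11 receptors were higher in PanCK+ segments, as were 7.67% of all genes, and 3 of 11 in IBA1+ segments, as were 10.2% (median log2 difference -0.08, against -0.03 over all genes). The former were *Itgb6*, *Itgav* and *Cd44* (1.66, 1.28 and 1.01), and the latter *Itgb5* (-1.18), *Itga4* (-0.67) and *Itga8* (-0.53, adjusted p = 0.04999).

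Enzymes known to cleave or modify osteopontin, 9 of 9 measured, moved in both directions. Matrilysin (*Mmp7*) rose in PanCK+ segments, to 127 on DDC in WT, where the CON segments were at 1 count (adjusted p = 2.85e-07). With these set to 3 counts, the DDC mean was 9.07-fold that on CON. In Trail.mye *Mmp7* rose from 13.1 to 105 (log2 fold change 2.93 ± 0.41, adjusted p = 1.50e-07). Macrophage elastase (*Mmp12*) rose in Trail.mye periportal IBA1+ segments from 5.75 to 40.3 (2.84 ± 0.42, adjusted p = 9.36e-07) and in parenchymal IBA1+ segments (4.14 ± 0.39, adjusted p = 1.79e-07). The hepatocyte products plasminogen (*Plg*, -2.03) and prothrombin (*F2*, -1.66) fell in Trail.mye periportal IBA1+ segments, where the hepatocyte markers also fell, and *Plg* fell in WT ones (-1.92). No other enzyme passed in these contrasts except *Plg*, which fell in Trail.mye PanCK+ segments (-1.01, adjusted p = 0.0496), as did 0.664% of all genes there. The 4 other members of the SIBLING family, the bone and tooth phosphoproteins encoded beside *Spp1*, were not analysed here.

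Of 14 regulators with known roles at *Spp1*, 9 were measured and none was called for the diet in PanCK+ or IBA1+ segments of either genotype. At an unadjusted p under 0.05, 1 of 9 passed in Trail.mye segments of each class, against 11.3% of all genes in PanCK+ and 21.1% in IBA1+ segments, and 0 of 9 in WT, against 6.4% and 5.09%. Between the classes, the duct factor *Sox9* (1.93) and the AP-1 subunit *Jun* (1.04) were higher in PanCK+ segments and *Runx1* (-0.79) in IBA1+ segments, on the log2 scale.

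*Spp1* is counted among the transcripts of scar-associated macrophages, and 12 other genes of that state were all measured. In Trail.mye periportal IBA1+ segments 7 of 12 rose on DDC, where 4.2% of all genes rose (median log2 fold change 1.25, against 0.07 over all genes). The lipid receptor *Trem2* rose from 3.67 to 40.8 (3.34 ± 0.37, adjusted p = 1.62e-09), *Gpnmb* from 5.58 to 47.3 (3.04 ± 0.38, adjusted p = 3.59e-08), galectin-3 (*Lgals3*) from 12.6 to 74.1 (2.44 ± 0.34) and the lysosomal tetraspanin *Cd63* from 11.2 to 62.8 (2.38 ± 0.32). In WT 1 of 12 was called, *Cd63* (2.88 ± 0.73, adjusted p = 0.0250), where 0.142% of all genes rose, and 7 of 12 passed at an unadjusted p under 0.05, where 5.09% of all genes did (median 1.32, against -0.16). In parenchymal IBA1+ segments 5 of 12 rose, against 0.294% of all genes, among them *Gpnmb* (2.56 ± 0.54), *Cd63* (2.52 ± 0.40) and *Trem2* (2.44 ± 0.48). In PanCK+ segments 1 of 12 was called in each genotype, *Fabp5* in WT (2.45, where 0.493% of all genes rose) and *Cd9* in Trail.mye (1.39, where 1.43% rose). At an unadjusted p under 0.05, 5 of 12 passed there in WT, against 6.4% of all genes, and 8 of 12 in Trail.mye, against 11.3%. Their median log2 fold changes were 0.77, against -0.17 over all genes, in WT and 0.89, against 0.18, in Trail.mye. Between the classes, 9 of 12 were higher in IBA1+ segments, as were 10.2% of all genes, and 1 of 12 in PanCK+ segments, as were 7.67%. The former were led by *Gpnmb* (-2.31) and *Lgals3* (-2.01), where *Spp1* was higher in PanCK+ segments. The list was not separated from the diet response of other macrophage genes by a test.

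**Figure D5:**
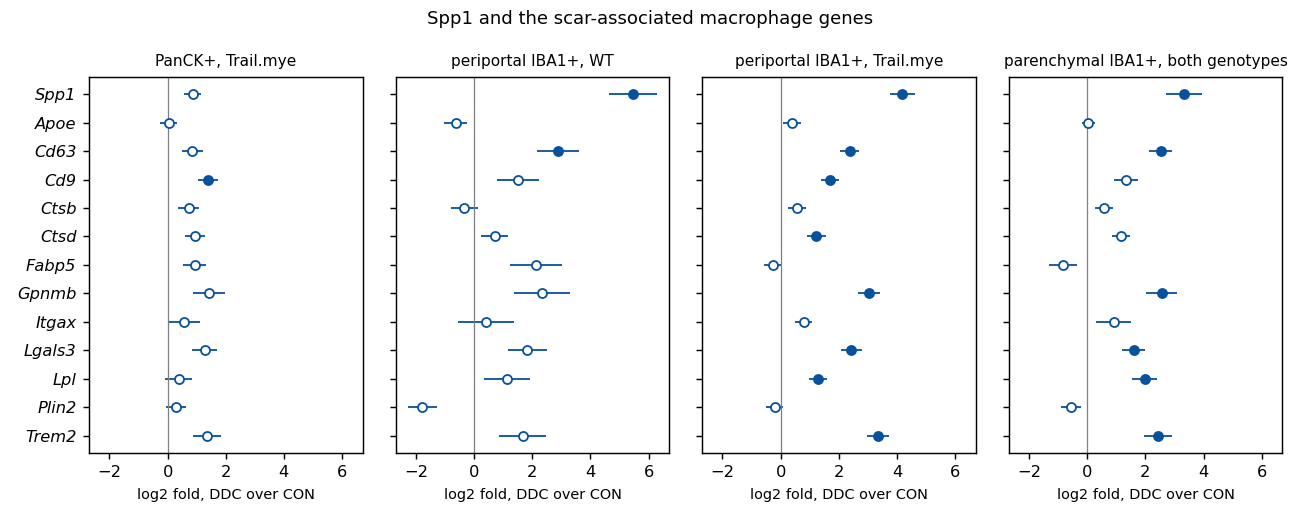
Log2 fold change on DDC over CON, with bars of 1 SE, for *Spp1* and the 12 scar-associated macrophage genes in Trail.mye PanCK+, WT and Trail.mye periportal IBA1+ and parenchymal IBA1+ segments. Filled points passed an adjusted p under 0.05 in edgeR's test over all genes. *Spp1* is at 0.87 in PanCK+ segments and at 5.46, 4.18 and 3.32 in the IBA1+ panels.

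By likeness of the log2 Q3-scaled level, the genes closest to *Spp1* differed between the classes. Over all 38 segments they were *Mfge8* (Pearson's r 0.88), *Anxa5* (0.87), *Clu* (0.86), *LOC118568792* (0.85) and *S100a11* (0.85), among 3089 genes with a mean count of at least 10. Over the 16 PanCK+ segments *Clu* led (0.92), followed by *Rplp1*, *Rpl28*, *Ppia* and *Erdr1* (0.90 to 0.87). Over the 15 periportal IBA1+ segments they were *Lcn2* (0.97), *Serpine2* (0.94), *Tagln2* (0.92), *Gstm3* (0.91) and *Ccdc80* (0.91). *Lcn2* encodes lipocalin 2, an iron-siderophore binding protein of injured epithelium and neutrophils, and *Clu* encodes clusterin, a secreted chaperone. These correlations run over segments that share diet groups and scaling, and they are descriptions.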

How the data were processed

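Formalin-fixed liver sections were profiled with the mouse whole transcriptome probes, and libraries were amplified for 18 cycles. The expected counts per target and segment were deposited by the authors after quality control and removal of targets near background, and the labels name bcl2fastq and mm10, with the aligner not given in the sources used here. The deposited signal values are the authors' Q3-normalised counts, each segment scaled to the same 75th percentile. Counts were rounded (3 genes and the negative probe, which was left out of tests, held fractions). Tests were two-sided quasi-likelihood tests of edgeR 4.0.16 in R 4.3.3 with upper-quartile factors (0.75), no filter, over 10547 genes, with Benjamini-Hochberg adjustment and a threshold of 0.05. Standard errors were derived from the F statistic (log2 change divided by root F). The paired segment classes were compared with the ROI as a block, since the labels give both segments of 1 ROI the same number. A group at 1 count in every segment was set to 3 counts per segment for folds and ratios, a setting that is no 95% limit. Exact permutation tests went through all splits or pairings with numpy 2.4.6. The fits were tested on simulated data.

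Segments were grouped by genotype, diet and class from their labels. Osteopontin and the lists of its receptors, processing enzymes, regulators, scar-associated macrophage genes and cell type markers were chosen with earlier results of these data known. Named are *Spp1*, at most 4 called members of a list and contrast with the largest change, the 5 genes most like *Spp1* in each set of segments, and the markers. Of the regulators, 1 is not reported here. Genes next to *Spp1* in the tests of the ratio, levels of *Cd44* in IBA1+ segments, and *Itga4* and *Itga8* between the classes, were added after their values were seen. Alternatives were TMM, total count, DESeq2 1.42.0, limma 3.58.1 on log2(Q3 + 1) and with 0.5, filterByExpr, only the groups compared, counts of 1 set to 0, thinning to the smallest total, the methods' t-test, the block left out, and each segment or ROI left out. The correlation without ROIs at 1 count was added after seeing the data. Of the table's gene names, 10512 matched RefSeq.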

Additional observations from a re-analysis of the deposited data

Results flagged for a closer look

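The diet changed the PanCK+ to IBA1+ ratio of *Spp1* in WT (log2 difference -4.51) and in Trail.mye mice (-3.35), which is a difference between the 2 segment classes in their response to DDC, by a test of that difference. The WT value rests on 2 CON ROIs whose IBA1+ segment was at 1 count. It was not called by edgeR without the ROI block (adjusted p = 0.158). Leaving out ROI 003 or 005 leaves 1 CON ROI, and the value was then -4.51 or -4.52. The exact permutation p was 0.0667, and the mean difference with these IBA1+ segments set to 3 counts was -2.86.

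Within groups of 4 or 5 segments, 33 sets of levels, shares, ratios, totals and negative probe values were searched for a segment far from the others, and 8 were found, where chance gives about 1 in 20. None of them was an *Spp1* level, share or ratio. ROI 035 of the Trail.mye DDC group had the highest total (836971 in its PanCK+ and 568720 in its IBA1+ segment) and the highest negative probe (43.1 and 27.8 counts). In Trail.mye CON segments, the PanCK+ segment of ROI 029 had the highest total (54834) and negative probe (1.42), and the IBA1+ segment of ROI 028 the highest total (220382). In WT DDC IBA1+ segments, ROI 013 had the highest negative probe (1.15).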

How the results depend on the processing

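For *Spp1*, 187 of 202 values under other settings kept their direction and side of the threshold, and 340 of 358 with a segment or ROI left out. The diet difference in WT PanCK+ segments passed with DESeq2 (1.25), filterByExpr (0.89), only the groups compared (1.12), TMM (1.36) and total count (1.12), and with segments left out it ran from 0.92 to 1.23. In Trail.mye PanCK+ segments it ran from 0.73 to 1.08, called only without ROI 035. The rise in WT periportal IBA1+ segments was not called by the methods' t-test (5.37, adjusted p = 0.159). Its counts of 1 set to 0 gave 10.9. The parenchymal rise was not called after thinning (3.11, adjusted p = 0.271) and ran from 2.84 to 3.68 with segments left out. The fits without the replicate block also held the unpaired WT CON PanCK+ segment of ROI 001. In the paired comparison, the fit without the replicate block gave -4.35 for the diet difference of the ratio in WT (adjusted p = 0.158), and 3.69 for PanCK+ against IBA1+ and -3.32 for the ratio in Trail.mye, where it ended no call. With ROIs left out it ran from -4.77 to -4.28, and was not called without ROI 003 (-4.51) or 005 (-4.52). The genotype difference of the ratio on DDC, 0.01, turned to -0.14 (DESeq2), -0.083 and -0.086 (limma with 0.5 and 1), -0.049 (thinned) and -0.31 (TMM), ran from -0.22 to 0.27 with ROIs left out (-0.22 without 009, -0.16 without 013, -0.016 without 032), and in the permutation test from -0.34 to 0.25. None of these was called. The correlation of the paired levels was 0.67 on the total count scale (p = 0.0511) and 0.29 without the 2 farthest ROIs, and ran from 0.30 to 0.82 with ROIs left out, with p above 0.05 in 8 of 15. Without the ROIs at 1 count it was 0.71.

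Called members of the osteopontin lists fell after thinning from 4 to 2 in WT and from 5 to 2 in Trail.mye PanCK+ segments, from 2 to 0 in WT and from 11 to 5 in Trail.mye periportal IBA1+ segments, and from 26 to 13 between the classes. With TMM they were 3 in Trail.mye PanCK+ and 0 in WT IBA1+ segments, and with DESeq2 3 in Trail.mye PanCK+ segments. Another scaling moved the median of all genes by over 0.1 in 40 of 63 fits, by at most 0.45, and a thinned fit tests fewer counts. In CON IBA1+ segments *Spp1* held 1 to 11 counts. Totals were 26380 to 37093 in the WT ones and 80722 to 265759 in the Trail.mye ones. Over both genotypes, *Spp1* in CON IBA1+ segments was 0.730 to 3.55 times the negative probe. WT DDC periportal IBA1+ segments, whose totals ran no higher than those of the WT CON ones, held 21 to 84 counts. The causes were not tested.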
